A study of Mus musculus with 9 samples.

Results

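The 30 genes described here encode the histone lysine demethylases of the mouse together with other proteins that carry a JmjC domain. They were chosen by name, and all 30 were measured among the 19938 genes of the arrays. They had 32 probe sets that name a single gene, and each gene was read at its brightest probe set. Kdm4d, which encodes JmjD2d, was the gene that the hairpin of the study targeted. RNA came from mouse dendritic cells grown in GM-CSF over 8 days from bone marrow progenitors expanded with stem cell factor and interleukins. In all groups GM-CSF was given as supernatant at 4%, together with stem cell factor at 5 ng/ml. Each of 9 arrays held 1 biological replicate. The labels do not say whether replicates came from separate animals, so p-values measure the spread between these cultures. Unstimulated wild-type cells and wild-type cells given LPS at 100 ng/ml for 4 h had 3 arrays each, and neither was transduced. The third group, also of 3 arrays, received the same LPS and carried a retroviral hairpin (vector pSir-delta U6CHisD) against the JmjD2d coding sequence, with selection in histidinol at 2 mM. LPS, the lipopolysaccharide of bacterial outer membranes, activates Toll-like receptor 4. The knockdown comparison therefore also compares transduced and selected cells with untouched ones. No control hairpin and no unstimulated knockdown cells were analysed here.

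Histone demethylases remove methyl groups from lysines of histone tails. The LSD1-type enzymes Kdm1a and Kdm1b are flavin-dependent amine oxidases, whereas JmjC enzymes use iron, oxygen and 2-oxoglutarate, and each family prefers certain lysines. Several JmjC proteins do not act mainly on histones and instead hydroxylate ribosomal proteins, transcription factors or a base of tRNA. In macrophages and dendritic cells the family is known above all for Kdm6b, an H3K27 demethylase that inflammatory signals induce, and JmjD2d removes methyl groups from H3K9.

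Values are log2 expression, and a difference of 1 is a 2-fold change. A gene is called changed at a Benjamini-Hochberg adjusted p under 0.05 over all genes, from a limma model of the 9 arrays. LPS acted in the wild-type cells: Il6 read 4.90 to 5.85 before and 11.73 to 12.91 after it, and all 8 genes of a response check list rose. Replicate 2 of LPS-treated wild-type cells was the array farthest from its group's median for 51.1% of all genes (replicate 1 for 30.1%). Among the 30 members, replicates 1 and 2 were each farthest for 12. The widest ranges within this group were those of Kdm6b (1.35), Jmjd8 (0.85), Jarid2 (0.79) and Hr (0.76), all with replicate 2 farthest. Where replicate 1 was farthest, the widest range was 0.37 (Kdm2b). Replicate 2 also had the lowest Il6 value of the group, 11.73. Against the median brightness of all genes, 11 of 15 dendritic cell markers lay above it and Flt3, Xcr1, Clec9a and Dpp4 below it, as did all 7 lymphocyte markers. Of macrophage markers 11 of 13 lay above it. Brightness depends on the probes, so levels are compared between groups and not between genes. Kdm4d was the only member whose mean over the 9 arrays, 7.50, lay under the median of all genes, 7.61.

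The first comparison asked how these genes answered LPS in wild-type cells. Riox2, a ribosomal protein hydroxylase, rose most firmly, by 1.89-fold, and 2 more members, Kdm4a and Tyw5, rose by less and close to the threshold. The 3 risen members are 10.0% of the 30, and 3.99% of all genes rose. None of the 30 fell by limma, and 6.86% of all genes did. At an unadjusted p under 0.05, 7 members (23.3%) were higher and 6 (20.0%) lower, against 10.3% and 16.0% of all genes. Taking the replicate number as a block gave 5 members higher, with Kdm5c and Kdm6b added, and 1 lower, Jmjd8, against 5.19% and 9.57% of all genes. The median difference of the members was -0.05 against 0.04 over all genes, and the median size of the difference was 0.22 against 0.13. Differences were above 0 for 12 members, but for 19 after quantile normalization, where the members' median was 0.07, so no common direction is given for the family. In RNA from whole cultures, less RNA per cell and fewer cells of a type cannot be told apart. Markers of other cells also moved with LPS. Of 12 neutrophil and granulocyte precursor markers, 11 had positive differences (median 0.86), as had 11898 of all 19938 genes. Csf3r (0.95), the macrophage marker Vcam1 (1.33) and the mast cell marker Hdc (3.23) were called higher. Of 13 macrophage markers, 5 had positive and 8 negative differences (median -0.16). Of 11 mast cell and basophil markers, 10 had positive differences and 1, Kit (-1.03), a negative one (median 0.09). The mean log2 level of the neutrophil list was 8.05 to 9.63 before and 8.48 to 10.31 after LPS. That of the dendritic cell list was 9.23 to 10.16 before and 9.41 to 10.15 after it, with none called. With the replicate block Ccr7 and Marco were also called higher and Kit lower. Their part in the changes of the members was not tested.

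**Figure D1:**
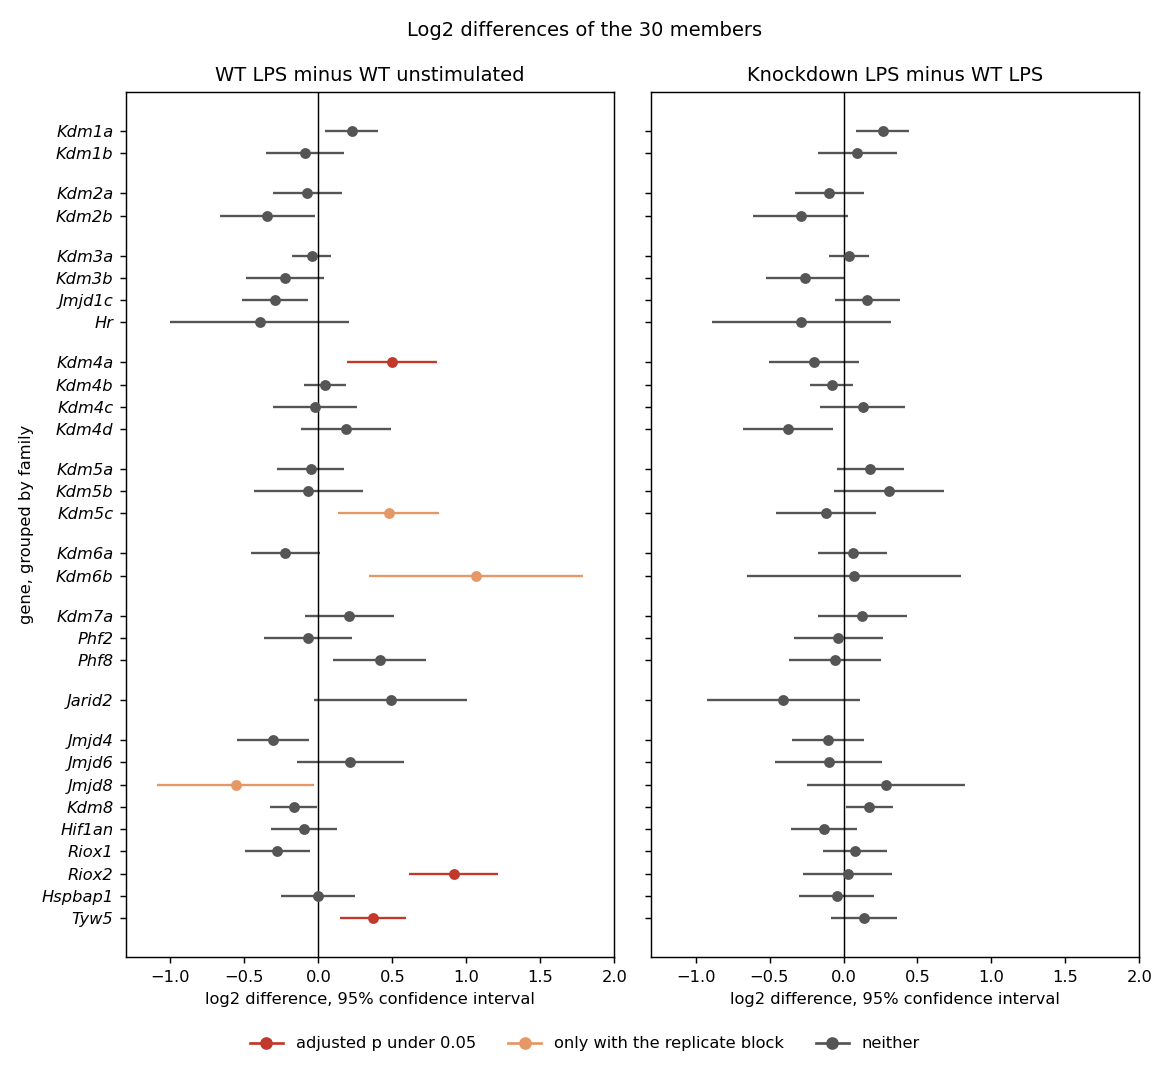
Log2 difference (x axis) of each of the 30 members with its 95% confidence interval, grouped by family; left, LPS-treated minus unstimulated wild-type cells, and right, knockdown minus wild-type cells after LPS. Riox2, Tyw5 and Kdm4a are the members called on the left, Kdm5c, Kdm6b and Jmjd8 pass with the replicate block but not without it, and no member is called on the right.

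Riox2, also known as Mina, is a JmjC hydroxylase of a histidine in a ribosomal protein and is known as a Myc-induced nucleolar protein. The unstimulated arrays read 11.07, 11.20 and 11.05, LPS-treated wild-type arrays 11.99, 12.03 and 12.03, and knockdown arrays 12.24, 11.71 and 12.19. All 6 LPS-treated arrays lay above all 3 unstimulated ones. The rise in wild-type cells was 0.91 (SE 0.13, limma adjusted p = 0.00479), and it passed the test under all 17 alternative settings, with adjusted p from 0.000544 to 0.0266. Its paralogue Riox1, a hydroxylase of another ribosomal protein, did not share the rise: it read 8.24, 7.98 and 8.05 before and 7.66, 7.86 and 7.92 after LPS. The Riox1 groups did not overlap, and its difference of -0.28 did not pass the test (limma adjusted p = 0.106).

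Tyw5, a hydroxylase of the tRNA base wybutosine, read 8.15, 8.22 and 8.03 before LPS, 8.33, 8.65 and 8.52 after it, and 8.54, 8.63 and 8.75 in knockdown cells after it. Again no LPS-treated array reached down to the unstimulated ones. The rise of 0.37 (SE 0.10, limma adjusted p = 0.0482) was held under 5 of 17 alternatives, and with 1 array left out it was held only without LPS-treated wild-type replicate 1 (adjusted p = 0.0379, against 0.058 to 0.154 without any other array).

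Kdm4a, a demethylase of trimethylated H3K9 and H3K36 and the only gene of the Kdm4 family to be called, read 10.24, 10.17 and 10.06 before LPS and 10.79, 10.37 and 10.80 after it. The groups were apart, with LPS replicate 2 nearest to the unstimulated arrays. Its rise of 0.50 (SE 0.13) lay at the threshold (limma adjusted p = 0.0496) and was held under 6 of 17 alternatives, among them the replicate block (0.0331). With 1 array left out it was held only without replicate 2 of LPS-treated wild-type cells (0.00773) or of knockdown cells (0.0456), against 0.0548 to 0.17 without any other array. The remaining Kdm4 genes had intervals across 0: Kdm4b at 0.04 (-0.10 to 0.19), Kdm4c at -0.02 (-0.31 to 0.26) and Kdm4d at 0.19 (-0.12 to 0.49). Kdm4c was positive, at 0.12, after quantile normalization. The 3 unstimulated values of Kdm4b were identical to all deposited digits, so that group adds no spread to its error. Knockdown replicate 3 read the same value, 8.93. By the looser measure of equal values on any 2 or more arrays, 41.1% of genes in this table had them.

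Promoter windows are shown for these 3 members, the ones called higher after LPS. They were taken from RefSeq on build GRCm38.p6 and reach from 250 bases before to 50 bases after the start site. The windows lie at chr16:59471525-59471824 (Riox2, plus strand), chr1:57406625-57406924 (Tyw5, minus strand) and chr4:118179994-118180293 (Kdm4a, minus strand). Capitals mark matches, on either strand, to the hypoxia response core ACGTG or to the AP-1 motif TGANTCA.
Riox2: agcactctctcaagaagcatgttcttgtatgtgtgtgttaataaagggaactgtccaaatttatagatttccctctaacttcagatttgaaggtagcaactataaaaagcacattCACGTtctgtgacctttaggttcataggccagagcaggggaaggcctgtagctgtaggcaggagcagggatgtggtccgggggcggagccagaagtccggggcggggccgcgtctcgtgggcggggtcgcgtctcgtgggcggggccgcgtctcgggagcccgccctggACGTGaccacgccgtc
Tyw5: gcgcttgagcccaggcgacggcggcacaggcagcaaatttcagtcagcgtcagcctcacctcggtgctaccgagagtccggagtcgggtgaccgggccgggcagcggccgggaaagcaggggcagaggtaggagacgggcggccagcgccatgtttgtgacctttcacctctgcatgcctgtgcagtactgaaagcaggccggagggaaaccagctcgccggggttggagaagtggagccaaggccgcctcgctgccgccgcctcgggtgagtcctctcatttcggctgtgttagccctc
Kdm4a: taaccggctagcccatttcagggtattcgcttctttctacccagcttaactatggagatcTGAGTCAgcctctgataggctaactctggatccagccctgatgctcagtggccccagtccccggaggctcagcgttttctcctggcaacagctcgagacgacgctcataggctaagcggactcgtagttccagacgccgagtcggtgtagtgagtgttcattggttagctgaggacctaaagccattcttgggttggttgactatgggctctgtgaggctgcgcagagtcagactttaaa

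The Riox2 window held the hypoxia response core at bases -135 and 35 from the start site, and the Kdm4a window held TGAGTCA at base -190. The Tyw5 window held none of the 6 motifs searched, which were also the NF-kB motif, the cyclic AMP element TGACGTCA, the E-box CACGTG, which contains ACGTG, and the STAT motif TTCNNNGAA. Windows were in the table for 24 members, 32 windows in all. ACGTG was in 31.2% of them and in 19.6% of all 32851 windows, the NF-kB motif in 12.5% and 8.46%, and TGANTCA in 12.5% and 7.81%. The E-box was in 9.38% of members' windows and 7.15% of all, the STAT motif in 9.38% and 8.3%, and TGACGTCA in 3.12% and 1.79%. A match is a run of letters and not a measured binding site.

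Among the demethylases of H3K27, Kdm6b had the largest difference of all members, and whether it was called depended on the setting. It read 9.26, 8.79 and 8.98 before LPS and 10.57, 9.22 and 10.44 after it. LPS replicate 2 lay inside the unstimulated range while the other 2 were more than 1 log2 unit above it. The difference of 1.07 (SE 0.32, a 2.09-fold change) did not pass the test (limma adjusted p = 0.0691), but it did with the replicate block (0.0359), with dim genes left out (0.0405) and without LPS replicate 2 (0.000891, difference 1.49). The 3 knockdown arrays read 10.09, 10.14 and 10.21, all above the unstimulated ones. Kdm6a, the X-linked H3K27 demethylase of the MLL3/MLL4 complex, had a difference of -0.22 (SE 0.10, adjusted p = 0.207).

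Of the H3K4 demethylases, Kdm5c read 11.09, 10.63 and 10.75 before and 11.49, 11.01 and 11.40 after LPS. The groups overlapped, yet each LPS array was above the unstimulated array of its own number, by 0.40, 0.38 and 0.65. Such agreement of all 3 pairs was found for 46.6% of all genes. Its difference of 0.48 (SE 0.15, limma adjusted p = 0.0803) passed with the replicate block (0.0303) and without LPS-treated wild-type replicate 2 (0.0174). Kdm5a and Kdm5b had differences of -0.05 and -0.07 (SE 0.10 and 0.16), both of them positive, at 0.06, after quantile normalization.

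**Figure D2:**
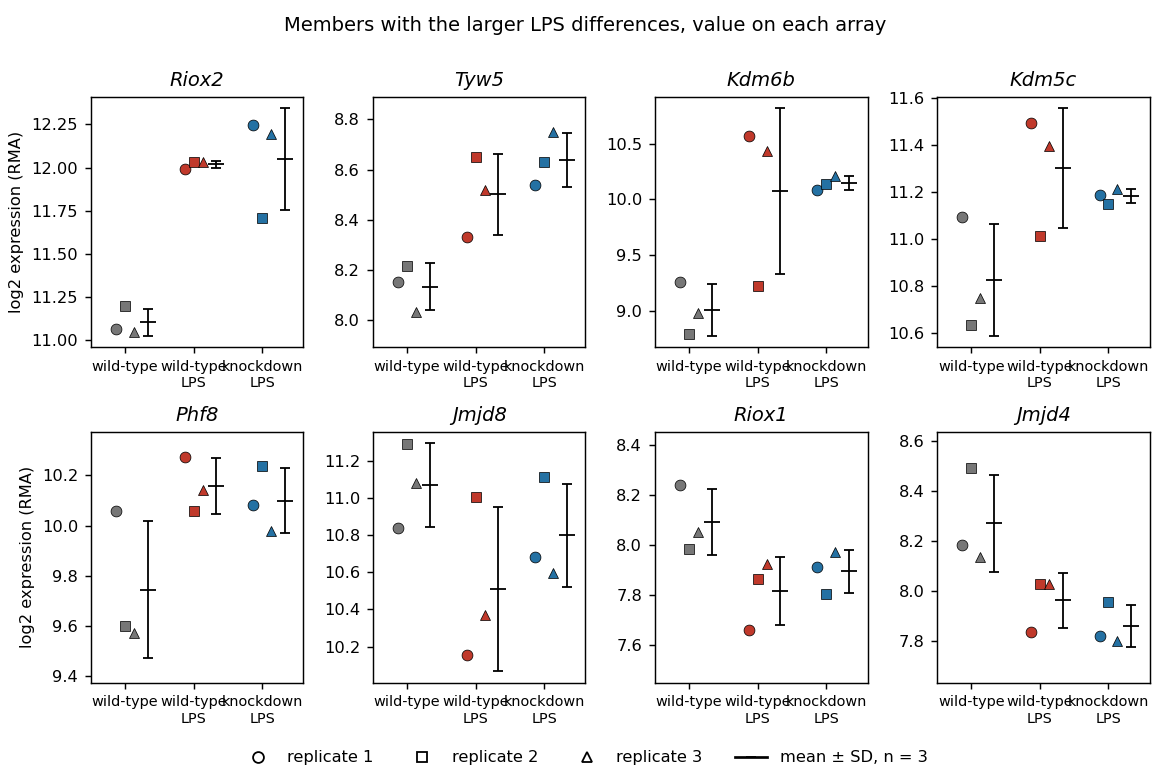
Log2 expression (y axis, own range per gene) on each of the 9 arrays for 8 chosen members. Symbols give the replicate number and bars the mean ± SD (n = 3). These are not the 8 largest LPS differences. Kdm4a (0.50), Jarid2 (0.49), Hr (-0.40) and Kdm2b (-0.35), not shown here, exceed Riox1 (-0.28) and Jmjd4 (-0.31) in size. Riox2 and Tyw5 are higher on all 6 LPS-treated arrays than on the unstimulated ones, while for Kdm6b the wild-type LPS array of replicate 2, at 9.22, lies among the unstimulated values.

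The Kdm7 family binds H3K4me3 through a PHD finger and demethylates H3K9, H3K27 or H4K20. Phf8 had a difference of 0.41 (SE 0.14, limma adjusted p = 0.0952), on values of 10.06, 9.60 and 9.57 before and 10.27, 10.06 and 10.14 after LPS. Unstimulated replicate 1 stood level with the lowest LPS array, and without it Phf8 was called (0.0231), as it was after quantile normalization (0.0326). Kdm7a had a difference of 0.21 (SE 0.13), with 0.33 at its dimmer probe set, and Phf2 one of -0.07 (SE 0.13). Jarid2, a JmjC protein without known demethylase activity that recruits the methyltransferase complex PRC2, had a difference of 0.49 with a wide error (SE 0.22, adjusted p = 0.211). It was called only without LPS-treated wild-type replicate 2 (0.0489).

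The Kdm3 family, which removes mono- and dimethyl marks from H3K9, had only negative differences. They were -0.04 for Kdm3a, -0.23 for Kdm3b, -0.29 for Jmjd1c and -0.40 for Hr, the hairless corepressor, and none passed the test. Kdm3a was positive, at 0.04, after quantile normalization. Jmjd1c read 10.91, 10.63 and 10.73 before and 10.47, 10.56 and 10.36 after LPS, without overlap (SE 0.10, limma adjusted p = 0.0934, and 0.047 after quantile normalization). Its dimmer probe set read a difference of -0.15. Hr had the widest spread among unstimulated arrays, 8.40, 7.40 and 8.13, a range of 1.00.

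The H3K36 demethylases Kdm2a and Kdm2b, of which Kdm2b also directs a Polycomb complex to CpG islands, had differences of -0.08 (SE 0.10) and -0.35 (SE 0.14, adjusted p = 0.16). Kdm2b was lower after LPS in each of the 3 pairs of arrays, with differences of -0.37, -0.28 and -0.39. Kdm1a, the catalytic subunit of the CoREST complex, read 10.27, 10.14 and 10.01 before and 10.39, 10.41 and 10.31 after LPS. These groups did not overlap, and the difference of 0.23 (SE 0.08) did not pass (limma adjusted p = 0.107), except after quantile normalization (0.0316). Its relative Kdm1b had a difference of -0.09 (SE 0.12), which was 0.08 after quantile normalization.

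Of the other JmjC proteins, Jmjd8, which resides in the endoplasmic reticulum, read 10.84, 11.29 and 11.08 before and 10.15, 11.01 and 10.37 after LPS. Its difference of -0.56 (SE 0.23, limma adjusted p = 0.171) passed with the replicate block (0.0194) and without LPS-treated wild-type replicate 2 (0.0258). Jmjd4, a hydroxylase of a translation termination factor, read 8.18, 8.49 and 8.14 before and 7.84, 8.03 and 8.03 after LPS. Its groups were apart, with a difference of -0.31 (SE 0.11, limma adjusted p = 0.107). Kdm8 (Jmjd5), a JmjC hydroxylase, was also apart and lower, with 7.73, 7.73 and 7.66 before and 7.51, 7.56 and 7.55 after LPS, a difference of -0.17 (SE 0.07, limma adjusted p = 0.171). Jmjd6, a lysine hydroxylase of splicing factors, had a difference of 0.22 (SE 0.16), and Hif1an, the asparagine hydroxylase that restrains HIF, one of -0.10 (SE 0.10), which was 0.06 after quantile normalization. Hspbap1, a partner of a small heat shock protein, stood at -0.004 (SE 0.11) and at 0.16 after quantile normalization.

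Across the 30 members, 4 had LPS-treated wild-type arrays all above the unstimulated ones (Kdm1a, Kdm4a, Riox2 and Tyw5) and 4 all below (Jmjd1c, Jmjd4, Kdm8 and Riox1). That is 13.3% in each direction, where all genes gave 12.8% above and 16.5% below. When the knockdown arrays were added, so that all 6 LPS-treated arrays were compared with the unstimulated ones, the same 4 were above and 2, Jmjd4 and Riox1, were below, against 6.81% and 9.72% of all genes.

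**Figure D3:**
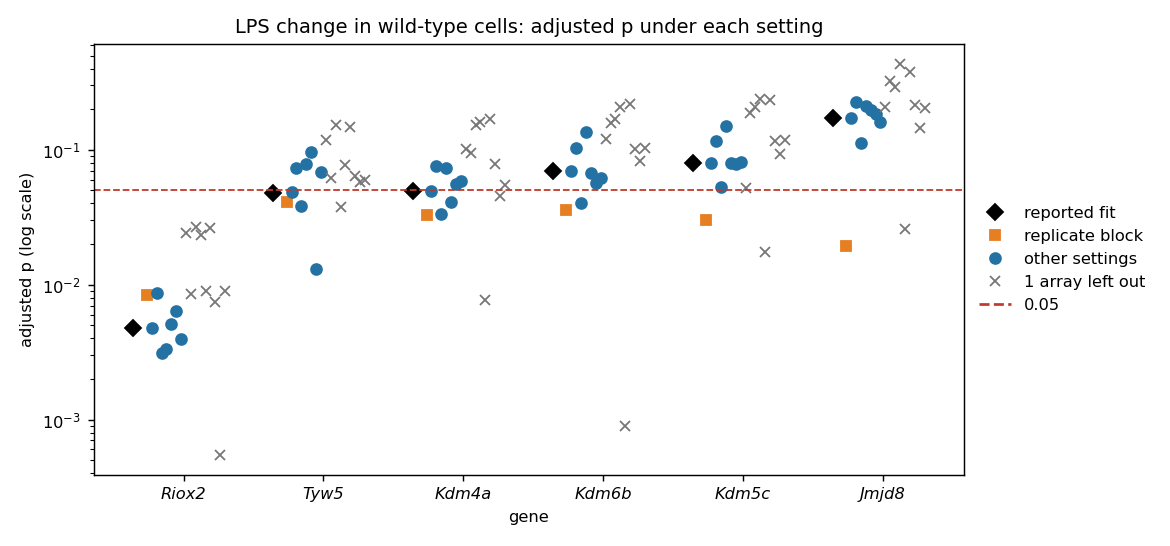
Adjusted p of the LPS change in wild-type cells (y axis, log scale) for 6 members in the reported fit and under each of 17 alternative settings; the dashed line is 0.05. Every point of Riox2 lies under the line, and points of the other 5 genes lie on both sides of it.

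The second comparison set LPS-treated knockdown cells against LPS-treated wild-type cells, and it shares those wild-type arrays with the LPS comparison. Kdm4d itself read 7.79, 7.54 and 7.74 in wild-type and 7.43, 7.11 and 7.40 in knockdown cells after LPS. The groups did not overlap, and the knockdown array was lower in each pair of the same number. In array signal, the knockdown mean was 77.1% of the wild-type one (95% interval 62.3% to 95.4%). This is a log2 difference of -0.37 (SE 0.13) that did not pass the test (limma adjusted p = 0.278). Kdm4d was dim, with a mean of 7.50 under the median of all genes, 7.61, and no other measure of its RNA was used here. Unstimulated wild-type cells read 7.24, 7.65 and 7.62, so replicate 1 of that group lay inside the knockdown range.

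**Figure D4:**
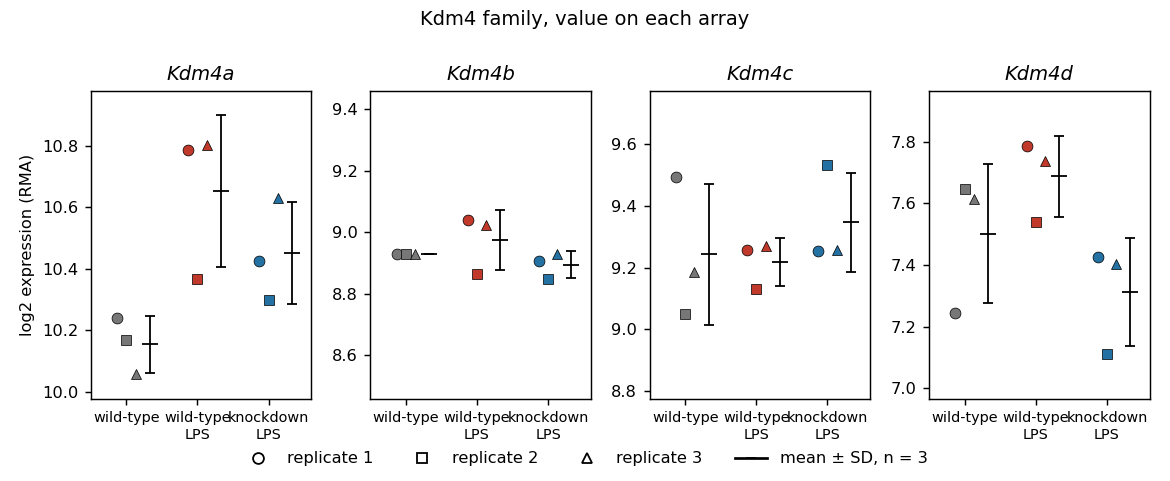
Log2 expression (y axis, own range per gene) of the 4 Kdm4 genes on each of the 9 arrays, with the mean ± SD (n = 3). Kdm4d is lower on the 3 knockdown arrays (7.11 to 7.43) than on the wild-type LPS arrays (7.54 to 7.79), while the other 3 genes overlap between these groups.

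The other members of the family overlapped between knockdown and wild-type cells. Kdm4a, which LPS had raised, read 10.42, 10.30 and 10.63 in knockdown cells, a difference of -0.20 (95% interval -0.51 to 0.10). Kdm4b differed by -0.08 (-0.22 to 0.06) and Kdm4c by 0.13 (-0.16 to 0.41). A decrease of the size estimated for Kdm4d lies inside the interval of Kdm4a and outside those of Kdm4b and Kdm4c.

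None of the 30 members was called in the knockdown comparison, against 0.401% of all genes higher and 0.361% lower. With the replicate block none was called either, while 1.51% of all genes were higher and 1.24% lower. Before adjustment, 3 members passed 0.05 in limma: Kdm1a and Kdm8 were higher (6.67%, against 7.32% of all genes) and Kdm4d was lower (3.33%, against 5.79%). The median difference over the members was -0.003 against -0.03 for all genes, and the median size was 0.13 against 0.09. The 95% intervals of all 30 members lay between -0.92 (Jarid2) and 0.82 (Jmjd8), so differences beyond about 2-fold fall outside them.

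Non-overlap of the 3 knockdown and 3 wild-type LPS arrays was found for 3 members above (Kdm1a, Kdm5a and Kdm8) and 3 below (Kdm2b, Kdm3b and Kdm4d). That is 10.0% in each direction, where all genes gave 8.21% above and 8.38% below. Kdm1a read 10.56, 10.66 and 10.69 in knockdown cells and at most 10.41 on any wild-type array. Its difference of 0.27 (SE 0.08, limma adjusted p = 0.179) had the smallest p of the members. Kdm5a, an H3K4 demethylase, read 9.79, 9.90 and 9.88 against 9.70, 9.78 and 9.55, a difference of 0.18 (SE 0.10).

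Kdm8 read 7.73, 7.59 and 7.82 against 7.51, 7.56 and 7.55, a difference of 0.18 (SE 0.07, limma adjusted p = 0.326), and its knockdown values covered the unstimulated range. Kdm2b went the other way, with 7.84, 7.88 and 7.65 against 8.30, 7.93 and 8.01 (-0.29, SE 0.14, limma adjusted p = 0.436). Kdm3b read 10.10, 10.25 and 10.00 against 10.38, 10.41 and 10.34 (-0.26, SE 0.12, limma adjusted p = 0.388). Against both wild-type groups at once, the knockdown arrays were all above for Kdm1a and all below for Kdm2b and Kdm3b, and 3.28% and 3.53% of all genes were placed so.

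**Figure D5:**
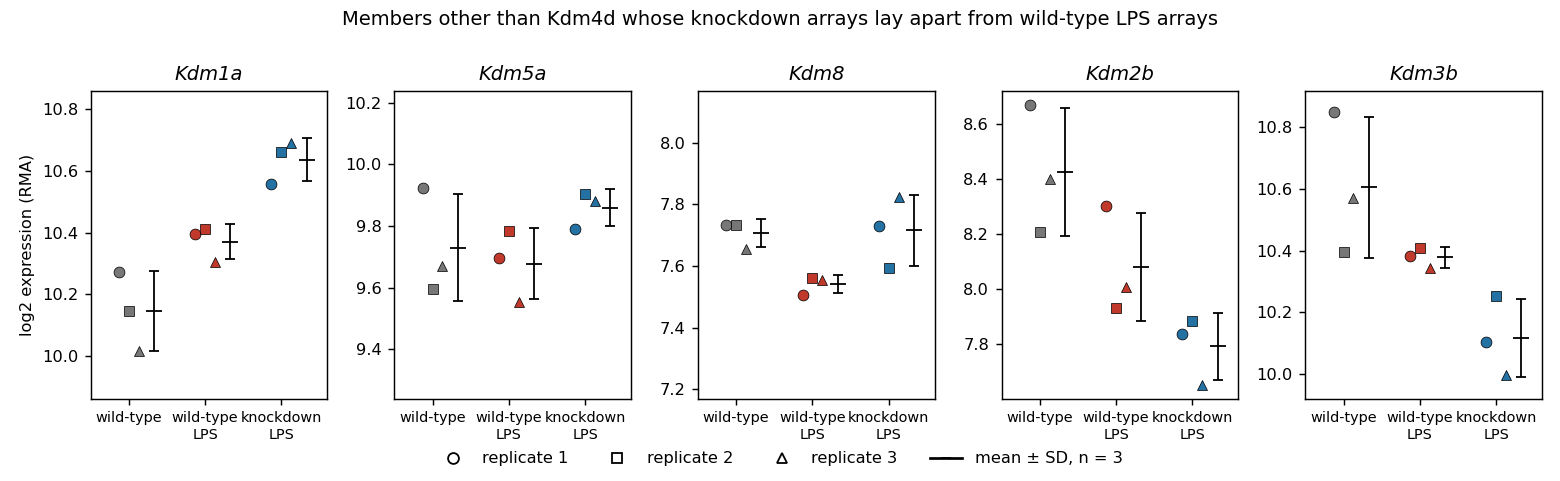
Log2 expression (y axis, own range per gene) on each of the 9 arrays for the 5 members besides Kdm4d whose knockdown arrays did not overlap the wild-type LPS arrays, with the mean ± SD (n = 3). Kdm1a lies at 10.01 to 10.27 without stimulation and at 10.56 to 10.69 in knockdown cells, and Kdm2b and Kdm3b are lowest in knockdown cells; no difference between knockdown and wild-type cells shown here was called.

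Riox2, Tyw5, Kdm6b, Jarid2 and Kdm5b were also read in knockdown cells, and none was called different from wild-type cells. Riox2 differed by 0.03 (95% interval -0.27 to 0.33) and Tyw5 by 0.14 (-0.09 to 0.36). Kdm6b differed by 0.07 with a wide interval (-0.65 to 0.79), and its pairs went both ways (-0.48, 0.91 and -0.22). Without wild-type replicate 2 its difference was -0.36. Jarid2 differed by -0.41 (SE 0.22), and its pairs disagreed: -0.80, 0.28 and -0.70. Kdm5b differed by 0.31 (SE 0.16), and knockdown replicate 2 stood alone at 10.21 against 9.50 and 9.62 on the other 2 arrays.

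The 16 members not yet given had knockdown differences between -0.28 (Hr) and 0.29 (Jmjd8). Kdm1b stood at 0.09, Kdm2a at -0.10, Kdm3a at 0.04, Jmjd1c at 0.16 and Kdm5c at -0.12. The dimmer probe set of Jmjd1c went the other way, at -0.09. Kdm6a was at 0.06, Kdm7a at 0.13, Phf2 at -0.03 and Phf8 at -0.06. Jmjd4 and Jmjd6 were both at -0.10, Hif1an at -0.13, Riox1 at 0.08 and Hspbap1 at -0.05. Of these, Jmjd8 (SE 0.23, limma adjusted p = 0.646), Kdm3a and Jmjd1c were higher in knockdown cells in each of the 3 pairs, and Kdm2a and Jmjd4 were lower in each. All 3 pairs went one way for 41.2% of all genes.

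Cell type markers also moved with the knockdown comparison. All 15 measured dendritic cell markers had negative differences, with none called by limma, 8 at an unadjusted p under 0.05 and 7 called with the replicate block. Of all 19938 genes, 11830 had negative differences. At an unadjusted p under 0.05, 5.79% of all genes were lower, and 1.24% were called lower with the block. The mean log2 level of the dendritic cell list was 9.41 to 10.15 in wild-type and 8.36 to 9.29 in knockdown arrays after LPS. Mast cell and basophil markers, 11 measured, stood at 7.00 to 7.38 and 6.31 to 6.67, with none called by limma and 3 called lower with the replicate block (Kit, Cpa3 and Gata2). Macrophage markers, 13 measured, stood at 10.47 to 11.06 and 10.12 to 11.11, with 5 positive and 8 negative differences (median -0.05). At an unadjusted p under 0.05 in limma, 2 of them were higher and 1, Csf1r (-0.65), was lower. The macrophage marker Spic was the only marker of any list that limma called in this comparison. It was higher in knockdown cells by 2.74 (limma adjusted p = 0.0384). Neutrophil markers, 12 measured, stood at 8.48 to 10.31 and 7.73 to 9.51, with Mpo called lower with the block alone. Lymphocyte markers, 7 measured, were at 5.68 to 5.85 and 5.70 to 5.80. Their part in the differences of the members was not tested.

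The proteins that work with or against these enzymes were also read. Of 35 partner subunits of complexes linked to the members, 4 rose and 3 fell after LPS in wild-type cells. This list includes the methyltransferase complex PRC2, linked through Jarid2. Over all genes 3.99% rose and 6.86% fell, and with the replicate block 5.19% and 9.57%. Rnf2 (0.63, SE 0.15) and Rybp (0.61, SE 0.13), both of the Polycomb complex that holds Kdm2b, rose, as did Mtf2 (0.50, SE 0.11), a PRC2 partner like Jarid2, and the deacetylase Hdac1 (0.34, SE 0.09). Rcor1, the CoREST scaffold of Kdm1a, fell by 0.36 (SE 0.09), the PRC2 methyltransferase Ezh1 by 0.51 (SE 0.13), and Pagr1a, a subunit of the complex that holds Kdm6a, by 0.57 (SE 0.10). Their limma adjusted p ranged from 0.0091 for Pagr1a to 0.0498 for Hdac1. With the replicate block 5 subunits were called lower, as Pcgf1 of the Kdm2b complex (-0.45, block adjusted p = 0.0236) and Dpy30 of the MLL complexes (-0.62, 0.0449) were added.

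Histone methyltransferases write lysine methylation, which demethylases remove. Of 22 measured ones, 2 rose and 3 fell after LPS, against 3.99% and 6.86% of all genes. Ezh1, Ezh2, Kmt2c and Kmt2d are not among these, as they were counted with the partner subunits. The marks written include H3K79, which is not among those given above for the members. Kmt5a, which methylates H4K20, rose by 0.77 (SE 0.08, limma adjusted p = 0.00145), and Dot1l, which methylates H3K79, by 0.73 (SE 0.14). Setd7 fell by 1.14 (SE 0.27), Kmt5c by 0.84 (SE 0.22) and Setdb1, which methylates H3K9, by 0.75 (SE 0.11, limma adjusted p = 0.00485). The replicate block added Smyd3 (-0.71, block adjusted p = 0.0282). Of 29 other dioxygenases that use iron and 2-oxoglutarate, 1 rose and 2 fell. With the replicate block 2 were called higher and 5 lower, against 5.19% and 9.57% of all genes. Tet2, which oxidises methylcytosine in DNA, rose by 1.21 (SE 0.13, limma adjusted p = 0.00148), a larger estimate than that of any of the 30 members, while Plod1, a collagen lysine hydroxylase, fell by 0.60 and Ogfod2 by 0.46. The block added Tet1 (0.96, block adjusted p = 0.0243) as higher, and Fto (-0.50, 0.0397), P3h3 (-0.36, 0.0475) and Ogfod3 (-0.48, 0.0452) as lower.

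None of these 3 lists had a member called by limma between knockdown and wild-type cells after LPS, with 4 of 35, 4 of 22 and 6 of 29 at an unadjusted p under 0.05, as were 13.1% of all genes. The smallest p within each list belonged to Rcor3, a CoREST paralogue (0.43, SE 0.09, limma adjusted p = 0.0717), to Egln2, a HIF prolyl hydroxylase (-0.43, SE 0.10, limma adjusted p = 0.102), and to the methyltransferase Smyd2 (0.36, SE 0.10, limma adjusted p = 0.156). With the replicate block Egln2 (0.0396) and Paxip1, a subunit of the MLL3/MLL4 complex (-0.42, limma adjusted p = 0.104 and 0.0244), were called lower, as were 1.24% of all genes. Median LPS differences of the 3 lists were -0.03, -0.07 and -0.09, and median knockdown differences 0.05, 0.09 and 0.07.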

How the data were processed

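The data were 9 Affymetrix mouse gene arrays, 3 per group, grouped by the sample titles. The deposited values are log2 and, per the submitters' processing notes, RMA was used to obtain them. The RMA version and genome build are not given in the sources used here. They were used as given. Of 35556 probe sets, 21789 named 1 gene, 1621 named several and 12146 were not in the gene table. Symbols were updated by Entrez identifier through the RefSeq table of GRCm38.p6, which matched 21698. Each of 19938 genes was read at its brightest single-gene probe set.

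Using limma 3.58.1 in R 4.3.3, the 3 group means were estimated jointly from the 9 arrays for every gene, with moderated two-sided tests and Benjamini-Hochberg adjustment over all genes (6 residual and 2.31 prior degrees of freedom). Errors are standard errors of this model. The script was tested on simulated data. The number of arrays, 3 per group, limits the precision. Same-numbered arrays deviated together from their group means in all 9 pairs (correlation 0.138 to 0.481, against -0.414 to 0.254 in 18 other pairs). These ranges overlap. The reported fit has no block, so its p-values do not use this pairing. The fit with the replicate block is given beside results whose call it changes.

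Alternatives were that block, the mean of a gene's probe sets, all probe sets tested, dim genes (under the median) left out, only the 6 arrays compared, median centring, quantile normalization, an intensity trend, and leaving out each array. All 30 members are named. From the 3 related lists, called genes are named, otherwise the gene with the smallest p, and called with the block where stated, which was added after values were seen. Members and lists were chosen with earlier results of these data known. Proteins were not compared because no protein table was used here.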

Additional observations from a re-analysis of the deposited data

How the results depend on the processing

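Riox2 was called higher after LPS under all 17 alternatives, and no member was called in the knockdown comparison under any. Of 1018 values of single members under alternatives, 954 kept their direction and side of the threshold, 23 lost a call, 12 gained one and 29 changed sign. The cause was not tested. The count of members higher after LPS was 3, and it was 5 with the replicate block, 1 with all probe sets tested, 1 with only the 6 arrays compared, 1 with an intensity trend and 1 to 5 with 1 array left out. Members lower numbered 0, and 1 with the block, 1 after quantile normalization, and 0 to 1 with 1 array left out.

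Partner subunits called after LPS numbered 7, but 3 with all probe sets tested and 1 to 12 with 1 array left out (12 without LPS-treated wild-type replicate 2). Methyltransferases outside the partner list numbered 5, but 3 with all probe sets tested and 3 to 6 with 1 array left out. Dioxygenases numbered 3, but 7 with the block and 1 to 7 with 1 array left out. In the knockdown comparison, 1 partner and 1 dioxygenase were called with the block, and 0 to 2 partners with 1 array left out. The replicate block changed no other call among the 30 members.

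Differences that changed sign were uncalled and, in the reported fit, small. With 1 array left out not all stayed small, as the knockdown range of Kdm6b below shows. Quantile normalization gave LPS differences of 0.0752 for Kdm1b, 0.0417 for Kdm3a, 0.12 for Kdm4c, 0.0611 for Kdm5a, 0.0638 for Kdm5b, 0.0626 for Hif1an and 0.16 for Hspbap1. Median centring gave Phf2 a knockdown difference of 0.0015. With 1 array left out, LPS differences ranged from -0.16 to 0.003 for Kdm1b, -0.15 to 0.0334 for Kdm2a, -0.12 to 0.10 for Kdm4c, -0.12 to 0.0453 for Kdm5a, -0.13 to 0.0224 for Phf2 and -0.11 to 0.11 for Hspbap1. Knockdown differences ranged from -0.0144 to 0.16 for Kdm1b, -0.36 to 0.32 for Kdm6b, -0.18 to 0.0678 for Phf2, -0.13 to 0.0023 for Phf8, -0.28 to 0.0344 for Jmjd6, -0.0681 to 0.20 for Riox2 and -0.0779 to 0.015 for Hspbap1. Kdm4d has no value with dim genes left out.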
